A study of Mus musculus with 912 samples.

Results

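The respiratory chain genes of the mouse nucleus were followed in single hippocampal nuclei, mouse by mouse, across cell types, exposure to a new environment and FOS status. They were taken by name, as symbols that start with Nduf, Uqcr or Atp5, the symbols Sdha to Sdhd and those that start with Cox4 to Cox8, without 4 rows with pseudogene names. A gene was kept when it was above 1 on the log2 TPM scale (TPM is an abundance per transcript length, scaled to the same total in each nucleus) in at least 5% of the 819 nuclei with at least 4000 genes above 1. Of 92 rows with such names 84 were kept, out of 40198 genes with a log2 TPM value. They comprised 7 core and 29 accessory subunits of complex I, 4 subunits of complex II, 8 of complex III, 11 of complex IV, 15 of ATP synthase and 10 assembly factors.

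The respiratory chain lies in the inner mitochondrial membrane. Complexes I and II pass electrons from NADH and succinate to ubiquinone, complex III passes them on to cytochrome c, and complex IV gives them to oxygen, while ATP synthase, also called complex V, uses the proton gradient that results to make ATP. Most subunits are encoded in the nucleus and a few core ones in the mitochondrial genome, so that the complexes are built from both and need assembly factors that are not part of the finished enzyme. Neurons rely on this route for most of the ATP that restores ion gradients after firing. The mitochondrially encoded subunits were not analysed here.

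Nuclei came from the hippocampus of female C57BL6 wild-type mice labelled as 7.75 to 9.0 weeks old. Home cage (HC) mice had no exposure, and 1 h mice spent 15 min in an unfamiliar environment (NE) and were sacrificed 1 h after it. The 4 h and 5 h mice were sacrificed 4 h and 5 h after the same exposure. A>A mice returned to the first environment after 4 h and were sacrificed 1 h after this re-exposure, whereas A>C mice went to a different environment instead. Nuclei were sorted singly with antibodies to PROX1, CTIP2 and FOS, together with NEUN in the HC and 1 h mice and with ARC in the later ones, and were sequenced by Smart-seq2, which reads full-length RNA and has no molecular identifiers. Dentate granule (DG) nuclei were taken at every exposure. The 4 h and 5 h nuclei were ARC+FOS−, and the A>A and A>C nuclei were ARC+ and either FOS+ or FOS−. CA1, VIP interneuron, subiculum (Sub) and CA3 nuclei came from HC and 1 h mice, with the cell type that the authors predicted for each nucleus from its RNA, and FOS+ and FOS− nuclei of one type often came from the same mice.

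After thresholds of 100000 reads and 4000 genes, and without 35 FOS− nuclei of HC or 1 h mice with Arc above 2.5, 783 of 912 nuclei from 29 mice were used. Total counts ran from 142275 to 5885216 per nucleus with a median of 1251690, and the group medians were lowest at 5 h (426841) and highest at 4 h (2469299). The mouse was the unit of every comparison, and mice that gave at least 2 nuclei of a group entered. In mice with at least 2 nuclei the DG labels matched the DG marker list. Its mean level was 2.93 to 5.13 in DG groups and at most 1.82 in CA1, CA3, Sub and VIP groups. In CA1 1 h FOS+ nuclei the mean over mice of the CA1 list (1.73) was below that of the CA3 list (2.11). Mouse 2, with 24 nuclei, matched its label (CA1 list 3.45, CA3 list 0.75). Mice 4 and 10, with 4 and 5 nuclei, went against it (0.40 and 3.59, 1.34 and 1.99). In the FOS− nuclei of mice 4 and 10 the CA1 list was the higher one (2.13 and 1.68, 3.08 and 0.61). The HC and 1 h nuclei spanned several plate dates and the later nuclei were on different dates, so that date and exposure cannot be told apart between them. The DG HC group is the thinnest: mouse 6 gave 18 nuclei and mouse 7 gave 5, sorted on 1 date, and mice 3 and 5 gave 1 nucleus each on other dates. The nucleus of mouse 3 went against its label, with a DG list level of 0.09 under a CA3 list level of 2.57. That of mouse 5 had a DG list level of 3.37 beside a VIP list level of 2.80, at 156591 counts.

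All 84 members were matched to RefSeq by symbol or, as for Atp5sl (listed as Dmac2), by synonym. Of them 72 had 1 or more promoters in the RefSeq table for GRCm38.p6, 78 promoters in all, each 250 bases before to 50 bases after a transcription start. The members with a position lay on 19 chromosomes. Sequences are shown for 4 members that the results below return to: Atp5b, the member with the highest mean level, Cox6a1, the member whose level followed the others most, and Sdha and Ndufs7, with several and with 1 motif. Capitals mark every match to 4 motifs searched on both strands, GCGCA, any base, then GCGC (NRF1, nuclear respiratory factor 1), CCGGAAG (ETS family), AANATGGCG (YY1) and TGACGTCA (CRE). Each run is written 5′ to 3′ on the strand of the gene, and the windows are chr10:128083057-128083356 (+ strand) for Atp5b, chr5:115348909-115349208 (− strand) for Cox6a1, chr13:74350191-74350490 (− strand) for Sdha and chr10:80249199-80249498 (+ strand) for Ndufs7.
Atp5b: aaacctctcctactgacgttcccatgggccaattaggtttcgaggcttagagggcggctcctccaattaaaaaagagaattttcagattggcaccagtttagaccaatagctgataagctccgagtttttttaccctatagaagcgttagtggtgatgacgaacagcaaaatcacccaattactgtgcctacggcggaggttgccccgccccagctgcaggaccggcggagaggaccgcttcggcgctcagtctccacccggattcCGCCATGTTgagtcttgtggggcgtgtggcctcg
Cox6a1: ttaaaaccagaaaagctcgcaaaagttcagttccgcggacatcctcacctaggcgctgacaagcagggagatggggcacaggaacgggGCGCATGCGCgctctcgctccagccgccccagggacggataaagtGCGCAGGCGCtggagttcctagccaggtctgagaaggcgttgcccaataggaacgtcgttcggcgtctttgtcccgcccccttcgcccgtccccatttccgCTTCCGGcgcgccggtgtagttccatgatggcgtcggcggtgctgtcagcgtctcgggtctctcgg
Sdha: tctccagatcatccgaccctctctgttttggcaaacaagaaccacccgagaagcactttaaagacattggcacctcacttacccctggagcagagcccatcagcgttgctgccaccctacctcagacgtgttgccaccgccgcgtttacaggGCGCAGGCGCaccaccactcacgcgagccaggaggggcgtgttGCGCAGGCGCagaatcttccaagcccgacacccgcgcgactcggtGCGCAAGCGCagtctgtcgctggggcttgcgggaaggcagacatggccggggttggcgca
Ndufs7: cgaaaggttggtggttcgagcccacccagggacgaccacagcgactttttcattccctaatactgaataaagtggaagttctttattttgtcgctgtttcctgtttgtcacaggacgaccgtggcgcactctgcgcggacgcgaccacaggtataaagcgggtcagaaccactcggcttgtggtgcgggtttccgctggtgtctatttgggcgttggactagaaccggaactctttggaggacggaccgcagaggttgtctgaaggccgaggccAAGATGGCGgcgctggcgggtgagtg

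Atp5b and Ndufs7 each held 1 YY1 match close to the start, in opposite orientations. Cox6a1 held 2 NRF1 matches and 1 ETS match, and Sdha held 3 NRF1 matches spaced over the last part of the window. Of the 78 member promoters, 20 (25.6%) held the NRF1 letters, against 4.60% of all 32851 promoters in the table. The ETS letters were in 17 (21.8%, against 8.86%), the YY1 letters in 12 (15.4%, against 2.38%) and the CRE letters in 4 (5.13%, against 1.79%). Member promoters were also richer in G and C, with a median of 58.8% against 52.7%. A match is a description of the letters and not a binding site.

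The members spanned more than 8 units on the log2(TPM + 1) scale, which is per transcript length. Atp5b, the catalytic beta subunit of ATP synthase, had the highest mean over the 783 nuclei, 8.80, and was above 1 in 99.5% of the 819 nuclei of the membership rule, which also gave the other shares of nuclei below. Structural subunits of complex IV came next, with means of 8.20 for Cox4i1, 7.61 for Cox6c, 6.68 for Cox5b and 6.46 for Cox8a. Among c-ring isoforms of ATP synthase, the rotor that protons turn, Atp5g1 (6.44) exceeded Atp5g3 (4.72) and Atp5g2 (1.84). In complex I the accessory subunits Ndufab1, the mitochondrial acyl carrier protein, and Ndufb2 had means of 6.16 and 5.91 and the iron-sulphur core subunit Ndufs7 one of 5.68, and Sdha, the flavoprotein of complex II, had a mean of 4.49. Uqcr10 led complex III with 5.05. Assembly factors were at the low end, from Ndufaf4, which acts early in complex I assembly, at 3.62 down to Ndufaf6, which was above 1 in 7.81% of nuclei, and Atp5s (10.6%). Just outside the rule lay Cox6a2, the muscle isoform of a complex IV subunit, at 2.44%, and Cox8c, a testis isoform, was above 1 in 0 nuclei.

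The mean of the 84 members in each mouse, on the log2(TPM + 1) scale, is called the member level below. Its pooled SD between mice of one group was 0.58. Within a mouse nuclei varied more, as in DG HC mouse 6, where single nuclei ran from 3.38 to 7.69 with an SD of 1.28.

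**Figure D1:**
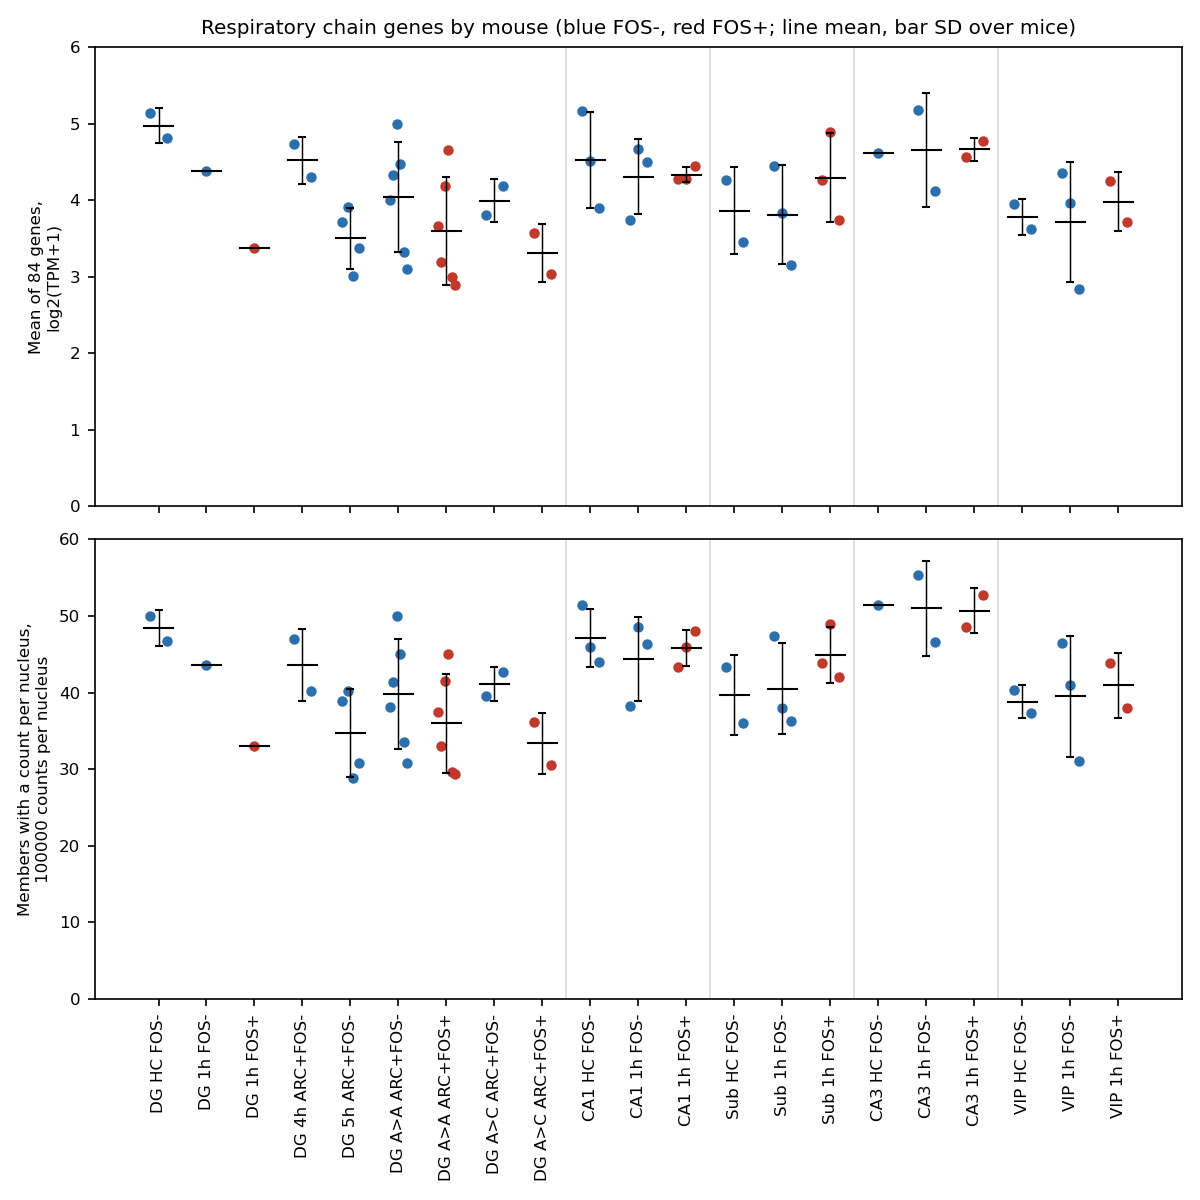
Member level per mouse in log2(TPM + 1) (top) and number of members with a count per nucleus after thinning to 100000 counts (bottom), one point per mouse, blue for FOS− and red for FOS+, with the mean as a line and the SD as a bar. In DG the 2 HC mice (5.13 and 4.81) lie above the 4 mice at 5 h (3.01 to 3.91), and A>A mice spread widely in both FOS groups.

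In the home cage, members were higher in DG than in VIP nuclei of the mice that gave several nuclei, but not in those that gave 1. The member level was 5.13 in DG mouse 6 and 4.81 in mouse 7, against 3.95 in VIP mouse 4 and 3.62 in mouse 5. These groups did not overlap, but the single nuclei of DG mice 3 and 5 were at 3.53 and 3.21 and the single VIP nucleus of mouse 8 was at 5.09, and with them they did. The nucleus of DG mouse 3 had a DG marker level of only 0.09. CA1 mice 3, 4 and 8 were at 5.16, 4.51 and 3.90, which overlapped DG and reached from above both DG mice to just under the higher VIP mouse. Members made up 1.17% and 1.19% of all counts in DG mice 6 and 7, and 0.351% and 0.480% in the single nuclei of mice 3 and 5.

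The DG excess over VIP was not the same in each complex. ATP synthase genes were at 5.71 and 5.93 in DG mice 6 and 7 and at 4.31 and 4.53 in VIP mice 4 and 5, with no overlap, whereas complex II genes were at 2.73 and 3.27 in DG and at 3.26 and 2.65 in VIP, which overlapped. Uqcrc2, a core protein of complex III, was at 4.71 and 4.51 in DG mice 6 and 7 and at 3.04 and 3.96 in the VIP mice. CA1 mice had 4.78, 2.83 and 5.89, on both sides of DG. Atp5h, subunit d in the stator stalk of ATP synthase, was at 7.88 and 8.18 in DG, 5.11 and 5.08 in VIP, and 7.46, 4.64 and 6.52 in CA1. Atp5g1 was at 7.53 and 7.13 in DG, at 6.69 and 5.32 in VIP and at 6.61, 2.98 and 4.96 in CA1, so that both DG mice lay above every VIP and CA1 mouse. The accessory complex I subunit Ndufb7 was at 4.68 and 4.44 in DG, at 3.49 and 2.71 in VIP and at 1.64, 0.16 and 1.48 in CA1. Cox5b went another way, with 8.21 and 9.21 in DG, 5.67 and 4.77 in VIP and 8.79, 10.55 and 6.88 in CA1, so that VIP was low and DG lay within CA1. Sdha was lower in DG (4.91 and 4.93) than in VIP (5.80 and 6.22), and CA1 (5.82, 4.49 and 6.54) overlapped both.

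Summed counts per mouse were tested with edgeR's quasi-likelihood test, with Benjamini-Hochberg adjustment over all genes. Against VIP, 78 of 84 DG members had a log2 fold change above 0, with a median of 1.32 and a median of 0 over the 21903 genes tested. Of these members 0 passed an adjusted p of 0.05 (percent of all genes called, 0.0411) and 3 were higher at an unadjusted p under 0.05, which 6.01% of all genes reached. The smallest p was that of Uqcrc2, with a log2 fold change of 3.18 and an adjusted p of 0.721 by edgeR, which was also the adjusted p of Atp5h (2.19). DESeq2 called 2 members (2.38%), Ndufaf3 (7.42, adjusted p 0.024) and Uqcrc2 (3.36, adjusted p 0.030). This share lies under the 6.95% of all genes with an adjusted p that DESeq2 called. On the mean log2(TPM + 1) of each mouse limma called 0 (0.578% of all genes). The limma median over members was 1.15, and it turned to −0.14 when the single nuclei of DG mice 3 and 5 and VIP mouse 8 counted as mice. Against CA1 the median was 1.00 with 67 of 84 above 0, 0 members passed in edgeR (0.0183% of genes called), 2 were higher at an unadjusted p under 0.05 (5.88% of all genes) and 1 passed in DESeq2 (Atp5g1, 2.44, adjusted p 0.033, with 4.94% of all genes called). Leaving out 1 mouse moved this edgeR median between 0.66 (CA1 mouse 8) and 1.47 (CA1 mouse 3). In edgeR Atp5g1 was at 2.19, Ndufb7 at 3.60 and Cox7a2l at 3.52, with an adjusted p of 0.751 each. The limma median against CA1 also turned, from 0.39 to −0.35 with the single nuclei. VIP against CA1 had a median of −0.28, 0 members called by edgeR (0.0183% of genes) and 1 lower at an unadjusted p under 0.05 (6.28% of all genes). Leaving out mouse 3 turned this median to 0.18, and it was −0.12, −0.58 and −0.65 without mice 5, 4 and 8. For VIP against CA1 DESeq2 called 1 member (5.35% of all genes), the complex I assembly factor Ndufaf3 (−7.49, adjusted p 0.012). Its calls here and for DG against VIP share the VIP HC mice. Counting mice, 40 of 84 members were higher in both DG mice than in both VIP mice (47.6%, against 17.3% of all genes), and with the single nuclei counted as mice 5 were (against 1.90%).

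The 1 h exposure was followed first in DG. DG 1 h nuclei came from a single mouse, number 3, which gave 27 FOS− and 26 FOS+ nuclei. The member level was 4.38 in its FOS− and 3.37 in its FOS+ nuclei (−1.01), and both lay under HC mice 6 and 7 (5.13 and 4.81). The FOS+ value was close to those of the single HC nuclei (3.53 and 3.21). FOS+ nuclei also had fewer genes above 1 (median 5195, against 6209), a lower cytosolic ribosomal level (3.17, against 4.03) and a lower DG marker level (3.15, against 4.95). The part of these in the difference was not tested.

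The difference was uneven across the complexes. The core subunits of complex I were at 4.50 in FOS− and 2.97 in FOS+ nuclei, complex II at 2.85 and 1.76, and ATP synthase at 5.14 and 4.11. Complex IV, at 6.52 and 6.10, differed least, and Atp5b was at 9.18 in FOS− and 9.34 in FOS+ nuclei. Atp5j2, subunit f of ATP synthase, was at 3.75 and 1.95, and Ndufb6, an accessory subunit of complex I, at 2.75 and 0.91. Lower still were Atp5g2, with 635 counts (level 2.62) in the FOS− sum and 20 (0.29) in the FOS+ sum, and the complex II anchor Sdhc, with 2061 (2.51) and 65 (0.72). Against these members Cycs, cytochrome c itself, was at 3.51 in FOS− and 4.96 in FOS+ nuclei. A list of 15 other subunits and carriers was lower in FOS+ nuclei, at 2.20 against 2.71.

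**Figure D2:**
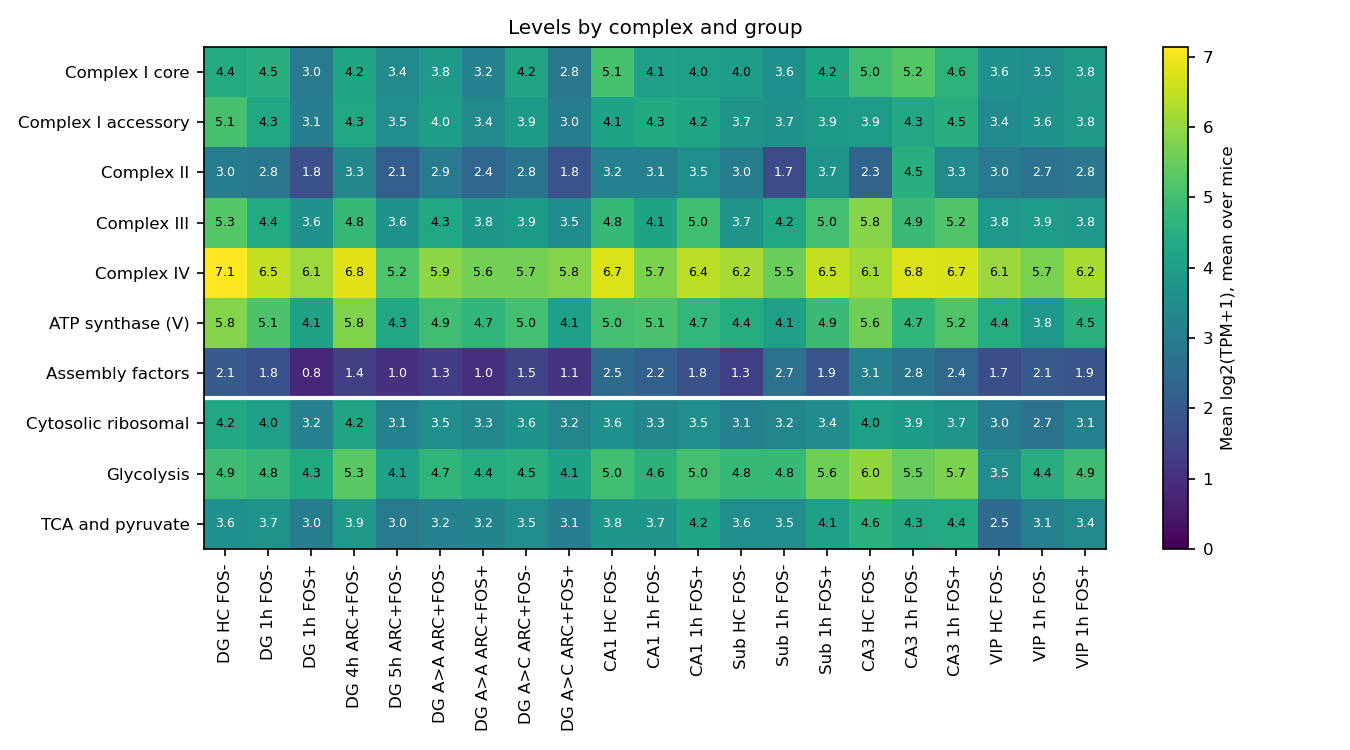
Mean over mice of the level of each complex, of assembly factors and of the ribosomal, glycolysis and TCA cycle lists, in log2(TPM + 1), as a heat map over the groups. Complex IV is the highest of the 7 member classes in each group and assembly factors are the lowest in each DG group, and DG HC (complex IV 7.14, assembly factors 2.05) stands above DG 5 h (5.18 and 1.03).

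In edgeR 0 of 84 members passed for FOS+ against FOS− DG nuclei at 1 h (0.0451% of 24405 genes called), 3 were lower and 1 higher at an unadjusted p under 0.05 (3.02% of all genes), and the median was −0.20 against 0 over all genes. Atp5g2 and Sdhc fitted at −4.53 each and Cox7c, a small complex IV subunit, at 1.61, all with an adjusted p of 1 in edgeR. DESeq2 called 3 members (3.57%), Atp5g2, Ndufaf5 and Sdhc, against 6.12% of all genes, and limma 0 (0.693% of all genes), with a median of −1.01 against −0.21 over all genes. With 1 mouse on each side these tests took the spread between mice from the other DG groups. Against HC, FOS− nuclei had a median of −0.64, with 0 members called (0.00410% of genes), 3 lower and 1 higher at an unadjusted p under 0.05 (2.80% of all genes) and 2 called in DESeq2 (2.38%, against 3.38% of all genes). FOS+ nuclei had a median of −0.997, with 0 called by edgeR (0.270% of genes), 4 lower at an unadjusted p under 0.05 (5.90% of all genes), 7 called in DESeq2 (8.33%, against 10.4% of all genes) and 2 in limma, or 0 with the single HC nuclei as mice. The 2 were Atp5j2 (−4.13, adjusted p 0.033) and Ndufb6 (−3.94, adjusted p 0.030), and limma called 3.29% of all genes. These comparisons share the HC mice, which were sorted on another plate date than the 1 h mouse.

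In the other cell types FOS+ and FOS− nuclei differed in no one direction. CA1 mice 2, 4 and 10 had member levels of 3.75, 4.66 and 4.50 in FOS− and 4.27, 4.28 and 4.45 in FOS+ nuclei, which overlapped, and the change within the mouse was 0.53, −0.38 and −0.06. In mice 4 and 10 the CA3 marker list exceeded the CA1 list in FOS+ but not in FOS− nuclei, and the part of this in the change was not tested. VIP mice 4 and 5 were at 3.97 and 2.84 in FOS− and 4.25 and 3.71 in FOS+ nuclei, and both were higher in FOS+ nuclei, by 0.28 and 0.87. Sub mice 2, 4 and 10 differed by −0.18, 1.05 and 0.59, and CA3 mice 4 and 10 by −0.62 and 0.65. In edgeR 0 of 84 members passed in each of the 4 types, where 0.00% of all genes were called, with medians of 0.10 in CA1, 0.15 in VIP, 0.23 in Sub and 0.13 in CA3. The sign of some of these medians was not stable. Leaving out mouse 4 turned the Sub median to −0.16, and leaving out mouse 2 gave 0.41. The VIP median ran from 0.07 (without mouse 5) to 0.38 (without mouse 4) and the CA1 median from 0.09 to 0.26 (without mouse 10). In limma the medians were −0.13 in CA1, 0.38 in VIP, 0.59 in Sub and −0.01 in CA3. At an unadjusted p under 0.05 CA1, VIP and CA3 had 0 members (4.34%, 5.67% and 4.00% of all genes) and Sub had 1 lower and 1 higher (6.71%). DESeq2 called 1 member, Ndufaf1, in CA3 (3.31% of all genes) and 0 in CA1, VIP and Sub (1.67%, 3.53% and 3.76%).

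**Figure D3:**
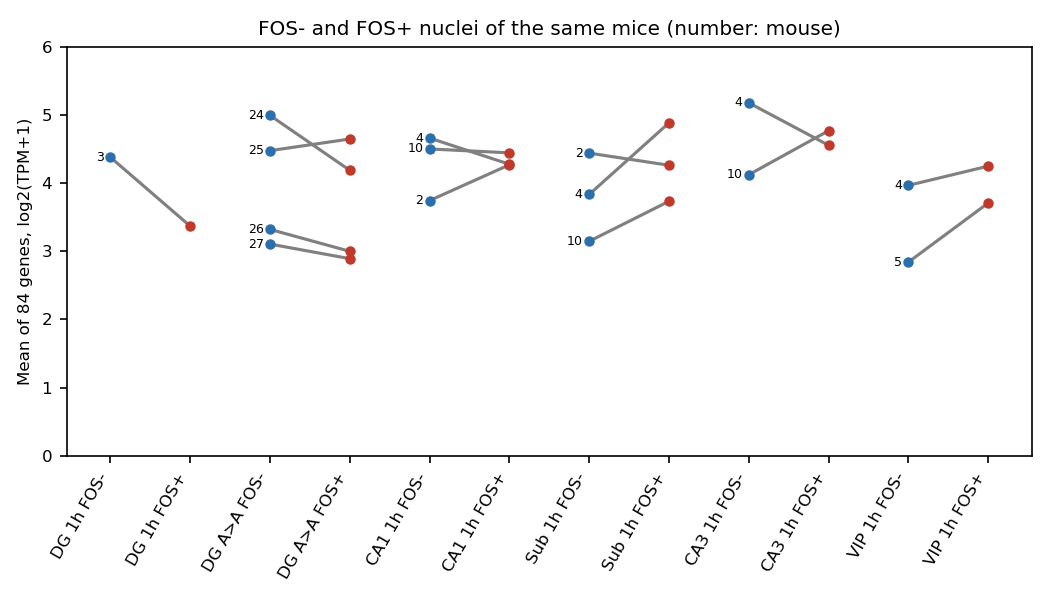
Member level in log2(TPM + 1) of FOS− and FOS+ nuclei from the same mouse, one line per mouse with its number, by cell type and exposure. The DG 1 h mouse goes from 4.38 in FOS− to 3.37 in FOS+ nuclei, 3 of 4 A>A mice are lower in FOS+ nuclei, both VIP mice are higher, and CA1, Sub and CA3 mice go both ways.

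FOS− nuclei of 1 h mice were also compared with HC nuclei in CA1 and VIP, where several mice stood on each side. CA1 HC mice 3, 4 and 8 were at 5.16, 4.51 and 3.90 and the FOS− nuclei at 3.75, 4.66 and 4.50, which overlapped. VIP HC mice were at 3.95 and 3.62 and the FOS− nuclei of mice 2, 4 and 5 at 4.35, 3.97 and 2.84, again with overlap. In edgeR 0 members passed in either (0.00% of genes called in both), with medians of −0.36 in CA1 and 0.23 in VIP, 1 lower in CA1 (5.03% of all genes) and 1 lower and 1 higher in VIP (4.97%) at an unadjusted p under 0.05. Sdha was at −1.56 in CA1 (adjusted p 0.940) and Atp5c1 at −2.89 in VIP (adjusted p 0.890). DESeq2 called 0 members in CA1 (1.99% of all genes) and Ndufaf3 in VIP (8.10, adjusted p 0.041, 3.19% of all genes). This Ndufaf3 call rests on the same VIP HC mice as its calls between cell types in the home cage. Both edgeR medians changed sign with 1 mouse. The CA1 median was 0.06 without HC mouse 3, −0.23 and −0.55 without mouse 4 of the HC and of the 1 h group, and −0.72 without HC mouse 8, and the VIP median was −0.13 without 1 h mouse 4, 0.04 without HC mouse 5, 0.05 without 1 h mouse 2 and 0.39 without 1 h mouse 5. In limma they were −0.23 and −0.05.

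Single members in these types differed in both directions. In CA1, Sdha was at 4.16, 5.47 and 7.11 in FOS− and at 4.98, 6.04 and 6.33 in FOS+ nuclei of mice 2, 4 and 10, which overlapped, with an edgeR log2 fold change of 1.18 (adjusted p 1.00). In VIP nuclei Uqcrc1, the other core protein of complex III, was at 6.65, 6.29 and 4.28 in the FOS− nuclei of mice 2, 4 and 5 and at 2.52 and 3.17 in the FOS+ nuclei of mice 4 and 5, with no overlap and an edgeR log2 fold change of −1.89 (adjusted p 0.885). Atp5c1, the gamma subunit in the stalk of ATP synthase, was at 3.40, 0.73 and 1.39 in the same FOS− and 4.57 and 1.86 in the FOS+ nuclei, which overlapped. In Sub, Cox5a of complex IV was at 2.77, 1.11 and 0.58 in FOS− and 3.56, 6.80 and 3.26 in FOS+ nuclei, with no overlap (edgeR log2 fold change 4.05, adjusted p 0.695), but the HC Sub mice had 8.90 and 3.58. The difference between cell types was tested as an interaction. The median over members was −0.58 for DG minus CA1 and −0.62 for DG minus VIP, and 0 of 84 members passed in either (0.00457% of genes called in each, edgeR and adjusted p). At an unadjusted p under 0.05 there was 1 member, Ndufaf5, for DG minus CA1 (1.73% of all genes) and 0 for DG minus VIP (2.50%), and DESeq2 called 0 in both (2.14% and 3.21% of all genes), as did limma (0.0508% and 0.0636%), where the medians were −1.02 and −1.41.

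Hours after the exposure, DG members were higher in the mice at 4 h than in those at 5 h, a difference that was not tested. The 4 h mice 17 and 21 had member levels of 4.74 and 4.30, and the 5 h mice 8, 9, 22 and 23 had 3.71, 3.91, 3.01 and 3.37. The 4 h and 5 h mice did not overlap, and both lay under the HC mice 6 and 7 (5.13 and 4.81). The single HC nuclei (3.53 and 3.21) lay among the 5 h mice. At 100000 counts per nucleus a mean of 50.1 and 46.8 members had a count in the 2 HC mice, 47.0 and 40.2 at 4 h, and 28.9 to 40.2 at 5 h. Members made up 1.00% and 1.04% of counts at 4 h and 0.774% to 1.01% at 5 h.

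Uqcrc2 had the smallest p against HC that rested on counts in both groups. It was at 4.71 and 4.51 in HC, at 3.15 and 4.01 at 4 h, and at 1.91, 2.92, 1.32 and 2.22 at 5 h, so that every 5 h mouse was under every 4 h and HC mouse. Its edgeR log2 fold change at 5 h was −2.18 ± 0.65 (SE) with an adjusted p of 0.233, and DESeq2 gave −2.38 with an adjusted p of 0.0079. Ndufa8, an accessory complex I subunit, was at 4.47 and 7.18 in HC, 2.17 and 3.10 at 4 h, and 1.84, 2.19, 2.09 and 1.82 at 5 h, lower in every 4 h and 5 h mouse than in both HC mice (limma difference at 5 h −3.84 ± 0.89, adjusted p 0.0068). Uqcrh, the hinge protein of complex III, was at 6.01 and 5.55 in HC and 4.16, 3.24, 1.01 and 0.28 at 5 h, where mice 22 and 23 were far under mice 8 and 9. Atp5h was at 7.88 and 8.18 in HC and 6.00, 5.67, 1.45 and 5.13 at 5 h, low mainly in mouse 22.

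The most abundant members overlapped more. Atp5b was at 8.25 and 10.26 in HC, 9.66 and 9.40 at 4 h, and 9.23, 8.58, 6.53 and 6.75 at 5 h, so that mice 22 and 23 stood apart and mice 8 and 9 lay between the HC mice. Cox8a was at 8.90 and 5.54 in HC and 4.84, 7.22, 3.96 and 3.24 at 5 h, which overlapped. Cox5b was at 8.21 and 9.21 in HC and at 5.82, 6.46, 3.76 and 7.25 at 5 h, below HC in all 4. Cox7a2l, which helps complexes III and IV join into supercomplexes, was at 5.95 and 5.89 in HC and 3.47, 4.22, 1.87 and 2.42 at 5 h, with no overlap. At 5 h 1 member was higher in all 4 mice than in both HC mice (1.19%, against 5.24% of all genes). It was the complex I assembly factor Ndufaf2, which had 0 counts in both HC mice and levels of 0.87 and 0.40 at 4 h and 0.76, 0.31, 0.94 and 1.67 at 5 h.

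**Figure D4:**
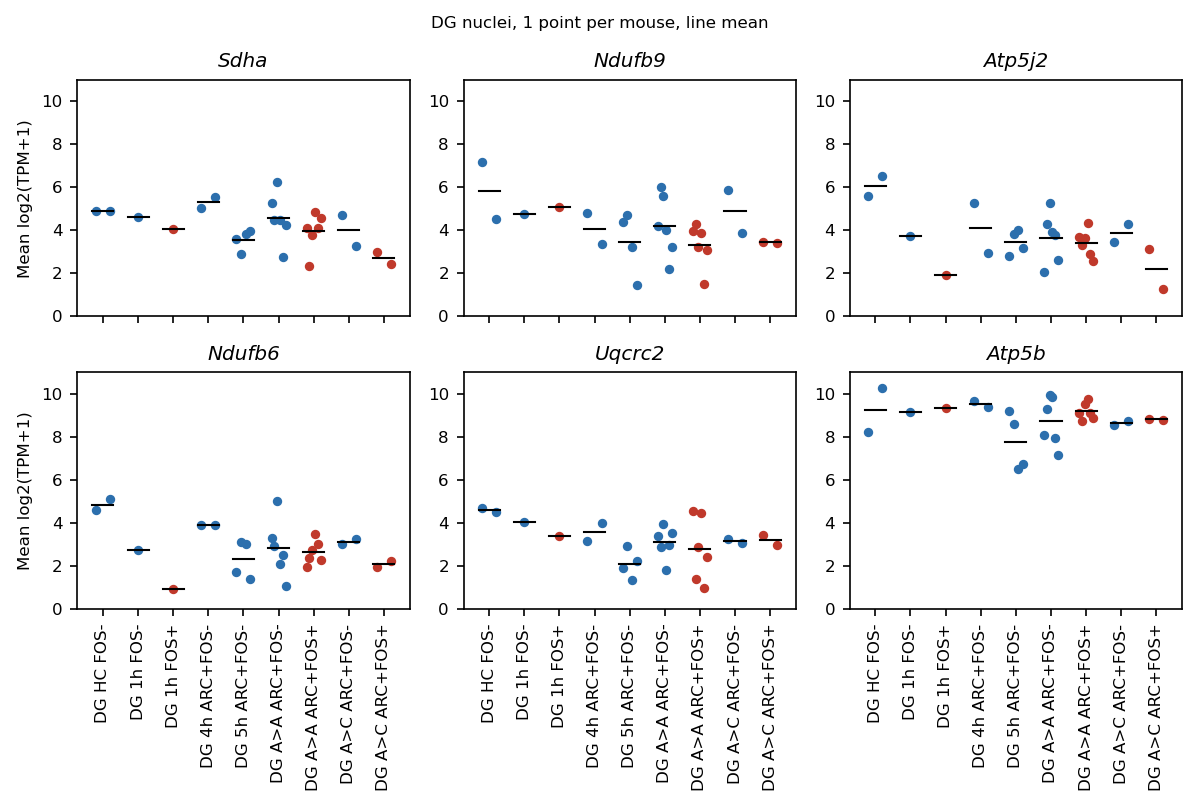
Mean log2(TPM + 1) per mouse of 6 members in the 9 DG groups, one point per mouse, blue for FOS− and red for FOS+. The HC mice have the highest group mean of Uqcrc2, Ndufb6 and Atp5j2, though single A>A mice reach them for the first of these and for Ndufb6, Atp5b overlaps across groups apart from 2 mice at 5 h (6.53 and 6.75), and Sdha is low in both A>C FOS+ mice (2.99 and 2.45).

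Of the 84 members 0 passed in edgeR at 5 h against HC (0.262% of genes called), with a median of −0.50 against 0 over all genes, and 12 were lower and 1 higher at an unadjusted p under 0.05 (15.5%, against 10.3% of all genes). DESeq2 called 4 members (4.76%, against 11.1% of all genes), of which Atp5s, Cox8a and Uqcrc2 were lower and Ndufaf2 higher. In limma 16 members were lower (19.0%) and 0 higher at an adjusted p of 0.05, against 9.34% of 15734 genes lower, and the median difference was −1.34 against −0.15 over all genes. They were 7 accessory subunits of complex I (Ndufa7, Ndufa8, Ndufa9, Ndufa11, Ndufb6, Ndufb7 and Ndufv3), Uqcrc2, Uqcrh and Uqcrq of complex III, Cox5b of complex IV, Atp5h and Atp5j2 of ATP synthase, Ndufaf3 and Ndufaf6 of complex I assembly, and Cox7a2l. Of these Ndufaf6 was above 1 in only 19 of 558 DG nuclei. With the single HC nuclei of mice 3 and 5 counted as mice, limma called 4 members lower (Cox5b, Ndufaf4, Sdha and Uqcrh), a share of 4.76% against 4.93% of all genes called, and the median was −0.94. The nucleus of mouse 3 was low in DG markers (0.09). Counting mice, 42 members were lower in all 4 mice at 5 h than in both HC mice (50.0%, against 16.2% of all genes), and with the single HC nuclei as mice 6 were (against 2.85%). Without HC mouse 7 limma called 2 members, Ndufv3, which is among the 16, and Ndufa6, which is not (3.90% of all genes called). Without 5 h mouse 22 it called 8, all of them among the 16 (7.96% of all genes).

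At 4 h 0 members passed in edgeR (0.246% of genes called), with a median of −0.05 against 0.23 over all genes and 2 higher at an unadjusted p under 0.05 (5.58% of all genes), Ndufaf2, which had 0 counts in HC, and Ndufab1 (1.33, adjusted p 0.864). Leaving out any 1 of the 4 mice gave a median of −0.15 to −0.10. DESeq2 called Ndufaf2 (5.66% of all genes) and limma called Ndufaf6 (−1.43, adjusted p 0.036, 3.64% of genes called). Ndufaf6 was above 1 in 19 of 558 DG nuclei, and its limma difference was −2.47 without HC mouse 6, which left HC mouse 7 alone. With the single HC nuclei as mice limma called 0, and its median turned from −0.25 to 0.22. By mice, 26 members were lower in both 4 h mice than in both HC mice (31.0%, against 22.5% of all genes) and 9 were higher (against 18.5%), shares that lie near those of all genes. Between HC and 5 h the neuronal marker level was 7.95 and 6.39, the DG marker level 5.13 and 2.93 and the cytosolic ribosomal level 4.24 and 3.14, and the part of these in the members' difference was not tested. All DG comparisons with HC share the 2 HC mice.

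**Figure D5:**
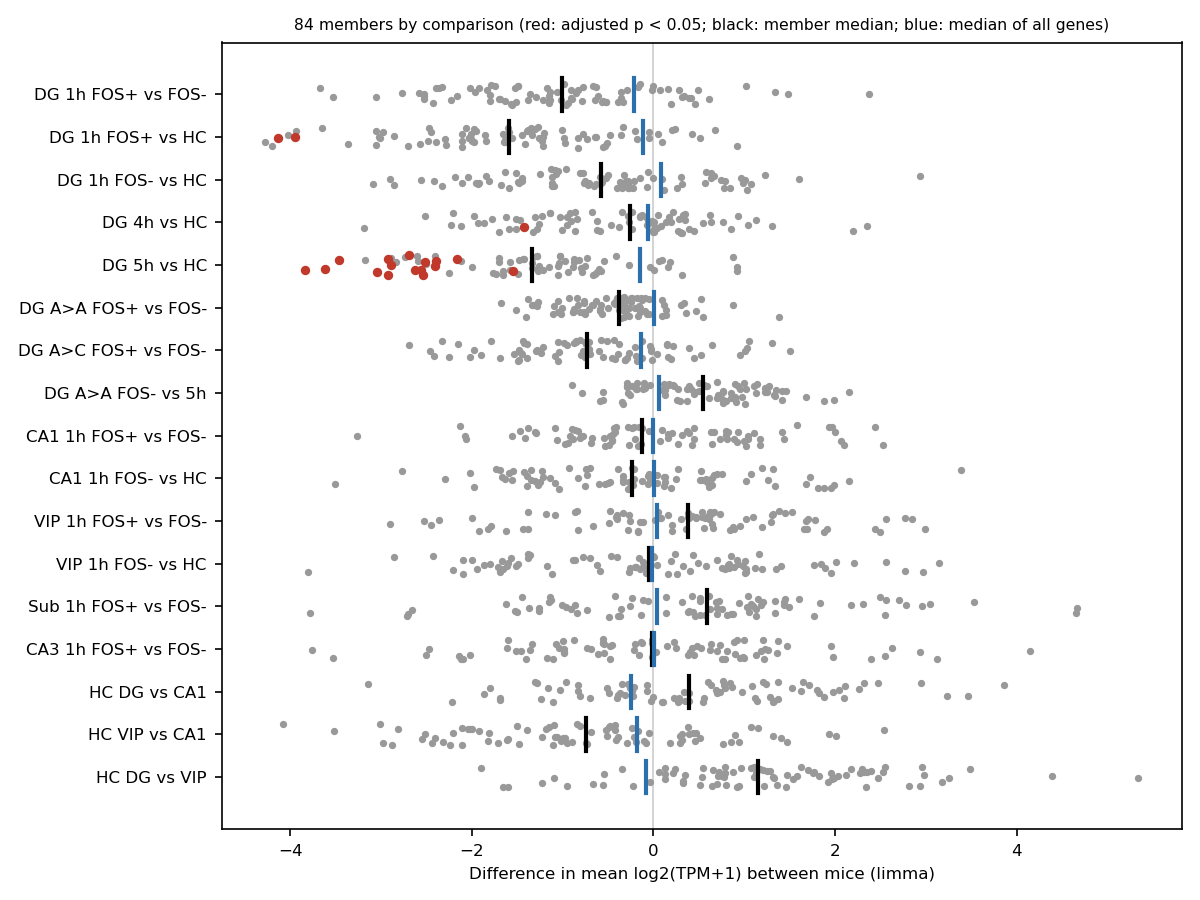
Limma differences in mean log2(TPM + 1) of the 84 members in the comparisons named on the vertical axis, red where the adjusted p is under 0.05, with the median of the members in black and of all genes in blue. Of the comparisons plotted, the member median is furthest below 0 for the DG 1 h FOS+ and 5 h groups against HC (−1.59 and −1.34) and furthest above it for DG against VIP in the home cage (1.15).

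Re-exposed A>A nuclei had the most mice, 6 with FOS+ and 6 with FOS− nuclei, 4 of them (24, 25, 26 and 27) shared. Mice 15 and 16 gave FOS+ nuclei alone, with mean counts per nucleus of 779497.2 and 785478.8. Mice 19 and 20 gave FOS− nuclei alone, with 2225280.5 and 2520080.6. Among these unshared mice FOS cannot be told apart from mouse and depth. FOS− member levels ran from 3.11 to 5.00 (median 4.16) and FOS+ levels from 2.89 to 4.65 (median 3.42), and the groups overlapped. Within the shared mice FOS+ nuclei differed from FOS− nuclei by −0.81 in mouse 24, 0.17 in mouse 25, −0.32 in mouse 26 and −0.21 in mouse 27. In A>C mice FOS− nuclei were at 3.80 and 4.19 (mice 11 and 12) and FOS+ nuclei at 3.58 and 3.04 (mice 13 and 14), with no overlap, but these came from different mice on different plate dates, which cannot be told apart from FOS.

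Ndufs3, a core subunit of complex I in the arm that reaches into the matrix, was the 1 member whose A>A groups did not overlap. It was at 5.30 to 6.21 in FOS− nuclei (median 5.65) and at 2.54 to 5.11 in FOS+ nuclei (median 4.09). Every FOS+ mouse was under every FOS− mouse, which held for 0.883% of all genes, and 0 members were higher in every FOS+ mouse (against 1.27%). Ndufb9, an accessory subunit with the smallest p, ran from 2.21 to 6.01 in FOS− and from 1.50 to 4.31 in FOS+ nuclei, and in all 4 shared mice FOS+ nuclei were lower (3.22 against 5.58 in mouse 24, 3.88 against 4.04 in mouse 25, 1.50 against 2.21 in mouse 26, 3.10 against 3.22 in mouse 27). Its edgeR log2 fold change was −1.17 ± 0.33 (SE), with an adjusted p of 0.243, and DESeq2 gave −1.16 with an adjusted p of 0.0100. Ndufs4, an accessory subunit of the matrix arm, fitted at −1.07 (adjusted p 0.273 in edgeR). Ndufb8, like Ndufb9 of the membrane arm, ran from 4.28 to 7.02 in FOS− and from 3.20 to 5.38 in FOS+ nuclei (edgeR −0.77, adjusted p 0.278).

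Of the 84 members 69 had an edgeR log2 fold change under 0 in A>A FOS+ nuclei, with a median of −0.36 against −0.02 over all genes. Of them 0 passed (0.0410% of genes called), and 4 were lower and 0 higher at an unadjusted p under 0.05, a share of 4.76% that lay under the 15.4% of all genes. DESeq2 called 1 member, Ndufb9 (1.19%, against 4.53% of all genes), and limma 0 (1.89%). With the mouse as a block the edgeR median was −0.06 and 0 members passed (0 of 24405 genes called). At an unadjusted p under 0.05 there was 1 higher (1.19%, against 6.76% of all genes). In limma with the block the median was −0.28 with 0 called (0.121% of all genes). Within the 4 shared mice 14 members were lower in FOS+ nuclei in every mouse (16.7%, against 14.6% of all genes) and 2 were higher (against 7.05%). In A>C the median was −0.39, with 0 called in edgeR (0.00% of genes) and 1 lower at an unadjusted p under 0.05 (4.46% of all genes). It was −0.09 without FOS− mouse 12 and −0.62 without FOS− mouse 11. DESeq2 called 1 member, Sdha (1.19%, against 6.01% of all genes), and limma 0 (0.547%). By mice 35 members were lower in both FOS+ mice than in both FOS− mice (41.7%, against 32.4% of all genes).

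Sdha had the smallest p of the members in A>C. Its sums in A>C held 5579 and 5970 counts in FOS− mice 11 and 12 and 809 and 688 counts in FOS+ mice 13 and 14. Its level was 4.74 and 3.27 in FOS− and 2.99 and 2.45 in FOS+ nuclei, with no overlap. In A>A it ran from 2.77 to 6.26 in FOS− and from 2.33 to 4.86 in FOS+ nuclei, which overlapped. The edgeR log2 fold change in A>C was −2.44 ± 0.69 (SE, adjusted p 0.855), and for FOS+ nuclei of A>A against A>C it was 2.89 ± 0.65 (adjusted p 0.37). The difference of the FOS contrasts between A>A and A>C was 2.71 ± 0.78 (adjusted p 1 in edgeR, 0.020 in DESeq2). In DESeq2 the A>C change was −2.45 (adjusted p 0.0098) and the FOS+ comparison 2.84 (adjusted p 2.435e-05). By level both A>C FOS+ mice lay within the range of the A>A FOS+ mice. Limma called 0 members in the FOS+ comparison and in the difference of the FOS contrasts (0.0191% and 0.00% of all genes). Over all members FOS+ nuclei of A>A exceeded those of A>C by a median of 0.37 against 0.16 over all genes, and 0 members passed in edgeR (0.00% of genes called). That median was 0.17 without A>A mouse 25 and 0.24 without A>A mouse 24. Mean counts per nucleus were 797339.3 and 777680.2 in A>C mice 13 and 14, near A>A mice 15 and 16 (779497.2 and 785478.8). They were 1648317.7 to 2276373.2 in A>A mice 24 to 27. Member levels were 3.58 and 3.04 in mice 13 and 14 and 3.66 and 3.19 in mice 15 and 16. The part of depth in that comparison was not tested. In DESeq2 Sdha was the 1 member called in that comparison (5.95% of all genes) and in the difference of the FOS contrasts (4.19%). At an unadjusted p under 0.05 there was 1 member, Sdha, in that comparison (4.94% of all genes) and in the difference of the FOS contrasts (4.38%).

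Compared with 5 h nuclei, which had the first exposure alone, A>A FOS− nuclei had a median of 0.12 and A>A FOS+ nuclei one of −0.25, against 0.17 and 0.08 over all genes, in edgeR. In limma the medians were 0.54 and 0.05, against 0.07 over all genes in both, so that the sign of the FOS+ comparison turned. Without 1 mouse the edgeR medians ran from 0.03 (5 h mouse 9) to 0.24 (5 h mouse 23) for FOS− nuclei and from −0.45 (A>A mouse 25) to −0.08 (5 h mouse 23) for FOS+ nuclei. In edgeR 0 members passed in either (0.00% and 0.0697% of genes called). Atp5s, the coupling factor B of ATP synthase, had 0 counts in all 4 mice at 5 h and the smallest p in both. Next came Uqcrc2 in the FOS− comparison with 1.45 (adjusted p 0.412 in edgeR) and Cox6b1, a complex IV subunit, in the FOS+ one with −0.86 (adjusted p 0.289 in edgeR). These comparisons share the 5 h mice. At an unadjusted p under 0.05 there were 1 lower and 5 higher in the FOS− (10.7% of all genes) and 5 lower and 1 higher in the FOS+ comparison (13.3%). DESeq2 called 1 and 3 members (1.19% and 3.57%, against 5.79% and 8.43% of all genes), and limma 0 in both (0.0636% and 2.97%). At an unadjusted p under 0.05 limma had 14 members higher and 0 lower in the FOS− comparison (16.7%, against 9.22% of all genes). On nuclei thinned to 100000 counts it had 10 members under that p in either direction and a median of 0.37. With mice of 1 nucleus in the fit it had 4. Mean counts per nucleus were 1938719.2 to 2520080.6 in A>A FOS− mice and 337714.2 to 1658728.8 at 5 h, and the part of depth was not tested.

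Other genes of energy metabolism were listed beside the members. At 5 h against HC the limma median was −0.91 for 16 glycolysis genes and −0.47 for 16 genes of the TCA cycle and pyruvate entry, against −1.34 for the members. Limma called 0 genes of either list, 4 of 76 mitochondrial ribosomal genes lower, 6 of 31 assembly factors outside the naming rule lower, and 11 lower and 1 higher of 91 cytosolic ribosomal genes (limma median −1.20). Of all 15734 genes it called 9.34% lower and 0.966% higher. In edgeR 1 of these genes passed at 5 h (0.262% of all genes called), the complex III assembly factor Uqcc1, which was at 2.93 and 5.11 in HC and 1.89, 2.18, 1.56 and 2.20 at 5 h (log2 fold change −3.72, adjusted p 0.043). Pfkp, a phosphofructokinase of glycolysis, was at 2.94 and 3.34 in HC, 4.09 in 1 h FOS+ nuclei and 5.91 and 3.36 at 4 h, and rose in edgeR in both (2.55, adjusted p 0.038, and 2.86, adjusted p 0.0069). Gapdh, another glycolytic enzyme, was at 9.00 and 9.28 in HC and 7.99, 8.84, 6.55 and 3.41 at 5 h. In A>A the medians were −0.17 for glycolysis and −0.04 for the TCA list in limma, against −0.38 for the members, with 0 genes of these lists called (1.89% of all genes). Ppargc1a, a coactivator of mitochondrial genes, was at 1.15 and 0.32 in HC, 1.12 in 1 h FOS− and 0.29 in 1 h FOS+ nuclei.

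Across nuclei the members varied together weakly. After taking out the mean of each mouse and group, the median Pearson r over 3486 pairs of members was 0.0827 in 783 nuclei, against 0.0475 for pairs of cytosolic ribosomal genes. It was 0.0688 when the number of genes detected in each nucleus was also taken out. The highest pair was Ndufa1 with Cox6a1 (0.24), and Cox6a1 had the highest mean r with the other members, 0.127. In 558 DG nuclei the median was 0.0895, in 73 CA1 nuclei 0.0748 and in 66 VIP nuclei 0.0821. The pairs share nuclei, depth and capture, and r this small leaves most of the variation of a member unshared.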

How the data were processed

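Single-nucleus Smart-seq2 libraries were trimmed (Solexa-QA++), aligned with Bowtie to mm10 and quantified with RSEM by the authors; the Ensembl release was not given in the sources used here. The authors deposited RSEM expected counts, 100.0% of them whole numbers, and log2(TPM + 1) values. Blank gene rows (30 in the count table, 23 in the log2 table) were left out.

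Counts were summed per mouse and group (at least 2 nuclei) and tested with edgeR 4.0.16 (quasi-likelihood, TMM, filterByExpr) in R 4.3.3, with Benjamini-Hochberg adjustment over all genes. Mean log2(TPM + 1) per mouse was tested with limma 3.58.1 (15734 genes), and the sums with DESeq2 1.42.0. Groups of a fit shared one estimate of the spread, and scripts were tested on simulated data. The design was written for counts, and the members and gene lists were chosen with earlier results of these data known. Named genes were the member with the highest mean in each complex, members past the threshold or, where none passed, mainly those among the 3 smallest p, isoform sets, members at the edges of the 5% rule, listed genes past the threshold, and Ppargc1a, Cycs and Gapdh; members past a limma or DESeq2 threshold were added after their values were seen. A mouse was an exposure and a mouse number, and FOS+ and FOS− nuclei with the same exposure and number came from 1 animal by their labels. Nuclei were thinned to 100000 counts for counts of detected members. Positions were taken from GENCODE, promoters from RefSeq (GRCm38.p6), and pandas 2.3.3 and scipy 1.17.1 were used. Smart-seq2 counts are not independent molecules. Alternatives covered filters, normalisation, the mouse definition, leaving out each mouse and the mouse as a block. Alignment rates were not used.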

Additional observations from a re-analysis of the deposited data

Results flagged for a closer look

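In all, 171 sets of 4 or 6 mice were examined, most of them 1 member in 1 group and the rest a summary over the members. Of these 7 had 1 mouse far from the others, and chance flags about 1 in 20 such sets. At 5 h, Ndufaf5 was at 0.600 in mouse 9 and listed at 0 in the other 3 mice, and Ndufaf6 was at 0.351 in mouse 8 and at 0 in the others. Also at 5 h, Ndufb10, an accessory subunit of complex I, was at 3.91 in mouse 9, under 4.69 to 4.71 in the others, and Uqcr10, a small subunit of complex III, was at 5.87 in mouse 22, above 4.97 to 5.12. In A>A FOS+ nuclei Atp5g1 was at 7.72 in mouse 26 (5.58 to 6.19 in the others), Ndufb10 at 6.12 in mouse 24 (3.84 to 4.53) and Ndufs4 at 4.37 in mouse 25 (2.15 to 2.87).

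The FOS+ to FOS− difference of Sdha was not the same in A>A as in A>C by DESeq2, with a log2 difference of 2.72 and an adjusted p of 0.020, while edgeR gave 2.71 with an adjusted p of 1. Limma called 0 members in this difference (0.00% of all genes). The member level of FOS+ minus FOS− nuclei was −1.01 in the DG mouse 3 and 0.28 and 0.87 in VIP mice 4 and 5. This difference between cell types was not tested for the level, since 1 DG mouse had both kinds of nuclei at 1 h.

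Outside the members, Cox6a2 was above 1 in 37.5% of 8 Pvalb nuclei. This was 3 nuclei from 3 mice, with 373 counts in all. The share was 0.896% in DG, 4.11% in CA1, 6.06% in VIP and in Sub, and 16.7% in Ivy nuclei, and 0 of 26 CA3 nuclei had it. No test was made on so few nuclei.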

How the results depend on the processing

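The main count of members called was 0 of 84 in each of the 22 comparisons, and it stayed 0 in edgeR with DESeq2 size factors, and without the low-count filter in those 22. It was also 0 in the comparisons run under other settings, 19 each without the thresholds on reads and genes, with the Arc filter off and with mice split by plate date, 18 with sums of at least 5 nuclei, and in all 87 leave-one-out fits over 17 comparisons (0 to 0 members). FOS+ and FOS− nuclei of a mouse are paired by their labels, and a fit with a replicate block for each mouse called 0 members and 0 genes in each of 6 comparisons, where the A>A median went to −0.06 and the others kept their sign. Leaving out a mouse could not be done for DG 1 h FOS+ against FOS− (1 mouse) or CA3.

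DESeq2 called 7 members for DG 1 h FOS+ against HC (10.4% of all genes called), 4 at 5 h (11.1%), 3 for DG 1 h FOS+ against FOS− (6.12%) and for A>A FOS+ against 5 h (8.43%), 2 for 1 h FOS− against HC (3.38%) and for DG against VIP (6.95%), 1 in each of 10 further comparisons (3.19% to 6.01%) and 0 in 6 (1.67% to 3.76%). Limma called 16 at 5 h (10.3%), 2 for 1 h FOS+ (3.29%) and 1 at 4 h (3.64%). The following were chosen after seeing the data. Limma on thinned nuclei called 10 and 3 in the first 2 of these (10.2% and 3.62% of all genes), and without 5 h mice 22 and 23 it called 5 at 5 h (6.11%). Leaving out 1 mouse gave 2 (HC mouse 7, 3.90%) to 16 members at 5 h, with 8, 9 and 12 without 5 h mice 22, 23 and 8 (7.96%, 9.16% and 10.7%) and 9 without HC mouse 6 (14.6%), and it gave 0 (HC mouse 7, 1.80%) to 6 (HC mouse 6, 9.98%) for 1 h FOS+ and 0 to 3 (HC mouse 6, 10.1%) at 4 h. With mice of 1 nucleus limma called 4 at 5 h (4.93%) and 0 in the 21 others, and the medians for DG against VIP, DG against CA1 and 4 h against HC changed sign, with 3.53 and 3.21 in the single DG HC nuclei as the low values. The first of these nuclei, from mouse 3, had a DG marker level of 0.09, under its CA3 marker level. Limma with the replicate block called 0 in 6 (at most 0.121% of all genes). On the log2 of mean TPM + 1 the member level of VIP FOS+ minus FOS− nuclei was 0.99 (0.26 as reported), and of 5 h minus HC −0.74 (−1.47). The cause of these changes was not tested. The median SE of a member in edgeR ran from 0.44 in A>A to 2.44, so that changes well under these were not detectable. Changes well above their SE could also miss the threshold. Sdha did so at 2.89 ± 0.65 for FOS+ nuclei of A>A against A>C (adjusted p 0.37 in edgeR), where its levels overlapped between the mice.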

Other observations

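Groups with too few mice for a comparison included the highest member levels, in Pvalb nuclei. In the compared groups the highest mouse was at 5.18 (CA3 1 h FOS−, mouse 4). Pvalb nuclei were at 5.64 and 5.24 in 2 mice with FOS+ nuclei at 1 h, at 5.09 and 5.36 in HC mice 4 and 8 and at 4.50 in the 1 h FOS− nucleus of mouse 10, the last of which lay under the CA3 HC mice, and HC mouse 8 and the FOS− mouse gave 1 nucleus each. In the Pvalb mice with 2 nuclei assembly factors were at 3.93 and 3.83 in FOS+ and HC nuclei, against 2.05 in DG HC nuclei. Ivy FOS− nuclei were at 4.31 and 2.87 and the Th HC mouse at 3.37. CA3 HC rested on 2 nuclei of mouse 8 (4.61) and 1 of mouse 4 (4.59).

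Ndufaf6, the member closest to the 5% rule, was detected unevenly between types: it was above 1 in 19 of 558 DG nuclei, or 3.40%, and in 16.4% of CA1, 16.7% of VIP, 21.2% of Sub, 23.1% of CA3 and 37.5% of Pvalb nuclei. In Ivy and Th it was above 1 in 0 of 12 and 0 of 7 nuclei. DG nuclei also had fewer genes above 1 than CA1 nuclei, with group medians of 5057 to 6209 against 6724 to 6844, and the part of this in the shares was not tested.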
